A study of Mus musculus with 9 samples.

Results

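The 10 genes examined here are grouped as photoreceptor outer segment structure genes. They include genes of its discs and axoneme, of protein transport to it, of the surrounding matrix and of endoplasmic reticulum membranes in rods. They were followed in mouse retina at postnatal day 8 in 3 genotypes: Rb/p107 double knockout (DKO), Rb knockout (Rb KO) and wild type (WT). The genes were chosen by name from the array annotation, with earlier results of these data known, so their counts are a description and not a test on genes picked blind. Each was read by 1 probe set, and all 10 were among the 24259 genes measured. There were 3 Affymetrix arrays per genotype, described by the submitters as biological replicates, and all animals were C57Bl/6x129SvJ. The sources used here give neither the alleles nor the cells in which Rb was deleted, and they do not say whether the p107 deletion was in the germ line. With 9 arrays in all, the number of arrays limits the precision.

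The outer segment is a modified cilium that holds a stack of membrane discs in which light is captured. Discs form as evaginations at its base, next to the connecting cilium, and are sealed and shaped at their rims by tetraspanins. An axoneme runs along the stack, and an extracellular matrix surrounds it. In mice the outer segments of rods and cones grow after birth, so a retina of this age holds photoreceptors that are still building them. Prph2 (peripherin-2) and Rom1 are the tetraspanins of the disc rim. Prom1 (prominin-1, a membrane glycoprotein that also marks some stem cells) and Cdhr1 (photoreceptor cadherin) lie at newly forming discs, and Fscn2 is the retinal fascin, an actin-bundling protein. Rp1l1 binds the axonemal microtubules, and Tulp1 takes part in protein transport to the outer segment. Impg1 and Impg2 are proteoglycans of the interphotoreceptor matrix, and Reep6 shapes endoplasmic reticulum membranes in rods.

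The genes lie on chromosomes 5 (Prom1), 9 (Impg1), 10 (Reep6), 11 (Fscn2), 14 (Cdhr1 and Rp1l1), 16 (Impg2), 17 (Prph2 and Tulp1) and 19 (Rom1). RefSeq promoter windows (build GRCm38.p6, 250 bases before to 50 after a start site) were matched by symbol for 8 of the 10, in 9 windows, of which Prom1 had 2. They were searched on both strands for TAATCC, the preferred site of the photoreceptor homeodomain factor Crx, which was in 0 of the 9 windows and in 7.06% of all 32851 windows. TGCTGA, part of the site of the rod factor Nrl, was also in 0 of 9 (19.48% of all), as was the E2F-type motif TTTNNCGC (5.17% of all). The shorter core TAATC, which is contained in TAATCC and was searched after that result, was in 5 of the 9 windows, those of Prph2, Impg1, Impg2, Tulp1 and 1 of the 2 of Prom1, and in 22.0% of all windows. The windows of 3 genes are shown because all 3 fell in both mutants and their windows differ in this core. Capitals mark TAATC or its reverse complement: Prph2 holds 3, Impg1 holds 2 and Rom1 holds 0. The windows are chr17:46910228-46910527 on the plus strand, chr9:80465389-80465688 on the minus strand and chr19:8929307-8929606 on the minus strand, each printed 5′ to 3′ along its gene. A match here describes letters and is not evidence of a bound site.
Prph2: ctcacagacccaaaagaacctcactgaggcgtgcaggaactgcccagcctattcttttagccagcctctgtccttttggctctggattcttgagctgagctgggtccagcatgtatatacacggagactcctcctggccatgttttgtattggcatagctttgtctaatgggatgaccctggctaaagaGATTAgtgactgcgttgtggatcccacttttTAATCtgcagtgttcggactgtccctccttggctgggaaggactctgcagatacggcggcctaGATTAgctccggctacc
Impg1: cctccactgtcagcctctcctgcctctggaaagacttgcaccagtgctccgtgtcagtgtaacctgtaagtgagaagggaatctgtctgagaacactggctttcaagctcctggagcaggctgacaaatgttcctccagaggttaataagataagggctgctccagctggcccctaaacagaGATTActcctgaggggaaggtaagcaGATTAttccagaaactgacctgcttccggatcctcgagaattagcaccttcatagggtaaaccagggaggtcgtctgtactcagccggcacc
Rom1: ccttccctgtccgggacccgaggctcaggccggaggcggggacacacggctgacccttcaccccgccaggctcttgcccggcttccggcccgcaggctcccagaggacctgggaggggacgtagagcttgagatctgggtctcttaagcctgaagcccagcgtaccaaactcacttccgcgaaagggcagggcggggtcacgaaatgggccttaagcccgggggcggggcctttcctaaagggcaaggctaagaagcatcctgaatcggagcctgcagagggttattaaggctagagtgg

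All values below are log2 intensities as deposited, or differences between them. Differences were tested with limma, with Benjamini-Hochberg adjustment over all genes, and a gene was called at an adjusted p under 0.05. Settings are alternative ways of processing or testing, 9 of which leave out 1 array. Background was set at the 95th percentile of the negative controls and was 7.94 to 8.50 on the 9 arrays, and 27.2% to 36.4% of genes lay above it. The targeted gene Rb1 differed little at its brightest probe set, with log2 fold changes of -0.36 in DKO (adjusted p = 0.0423) and -0.31 in Rb KO (adjusted p = 0.0793) against WT. The DKO call ended in 9 of the 16 alternative settings, and both signs turned with the mean of the Rb1 probe sets, so these arrays do not check the knockout. The p107 gene Rbl1 was not analysed here. DKO replicate 2 stood apart in Xist (5.47, against 11.98 and 12.04 in the other DKO arrays, 11.84 to 12.15 in Rb KO and 11.44 to 11.91 in WT) and in lens markers.

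All 10 genes were lower in both mutants than in WT. In DKO against WT 10 of 10 were called lower at an adjusted p under 0.05, where 17.1% of all genes (12.2% were called higher) and 29.1% of the 6853 genes above background in every WT array were. In Rb KO against WT it was also 10 of 10, beside 14.3% of all genes (10.2% higher) and 25.7% of that subset. The median log2 fold change of the 10 was -1.22 in DKO and -0.996 in Rb KO, beside -0.06 and -0.05 over all genes, and both comparisons share the WT arrays. No array of a mutant group reached the lowest WT array for any of the 10 genes, which held for 26.5% of all genes in DKO and 21.5% in Rb KO. In whole retina, fewer photoreceptors and less RNA per photoreceptor cannot be told apart.

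**Figure D1:**
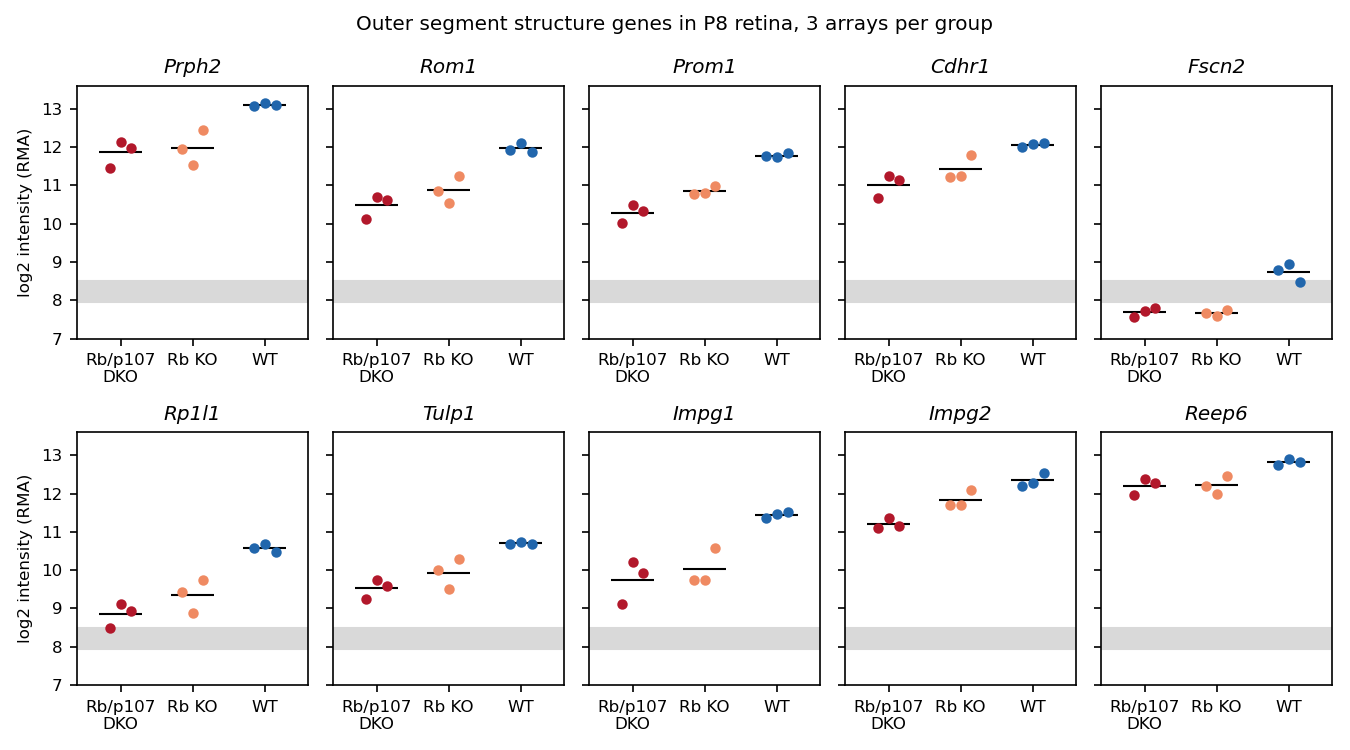
Log2 intensity of each gene on each array (points, 3 per group) with the group mean (line), in Rb/p107 DKO, Rb KO and WT retinas. The grey band is the range of the background percentile over the arrays, 7.94 to 8.50: all mutant points lie below all WT points, and the mutant points of Fscn2 lie below the band.

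The disc rim genes fell in both mutants, to between 35.7% and 47.1% of the WT level. Prph2 read 11.47, 12.14 and 11.98 in DKO, 11.95, 11.52 and 12.46 in Rb KO, and 13.07, 13.14 and 13.10 in WT. The WT arrays lay close together, while both mutant groups were wider (SD 0.35 in DKO and 0.47 in Rb KO, against 0.04 in WT) and overlapped each other. Its log2 fold change against WT was -1.24 (SE 0.216, adjusted p = 0.00148) in DKO, or 42.3% of the WT level, and -1.13 (SE 0.216, adjusted p = 0.00344) in Rb KO, or 45.8%. Rom1, whose protein assembles with peripherin-2, read 10.13, 10.69 and 10.63 in DKO, 10.87, 10.55 and 11.24 in Rb KO, and 11.94, 12.10 and 11.87 in WT. It stood at 35.7% of the WT level in DKO (log2 fold change -1.49, SE 0.179, adjusted p = 1.4e-04) and at 47.1% in Rb KO (-1.09, SE 0.179, adjusted p = 0.00138). The same arrays were highest and lowest for both genes in each mutant group.

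Genes of newly forming discs also fell. Prom1 read 10.03, 10.48 and 10.34 in DKO, 10.77, 10.81 and 11.00 in Rb KO, and 11.77, 11.73 and 11.84 in WT. The 3 groups did not overlap, with DKO lowest and WT highest. Prom1 was at 35.3% of the WT level in DKO (log2 fold change -1.50, SE 0.114, adjusted p = 4.96e-06) and at 52.7% in Rb KO (-0.92, SE 0.114, adjusted p = 2.17e-04). Cdhr1, the photoreceptor cadherin, read 10.67, 11.25 and 11.13 in DKO, 11.23, 11.25 and 11.80 in Rb KO, and 12.01, 12.09 and 12.11 in WT. It fell by 1.05 on the log2 scale in DKO (SE 0.170, adjusted p = 9.6e-04) and by 0.64 in Rb KO (SE 0.170, adjusted p = 0.0196). The Rb KO call for Cdhr1 ended when Rb KO replicate 1, Rb KO replicate 2 or WT replicate 3 was left out, and when the fit took in how well each array separated its positive from its negative controls (adjusted p = 0.0551 to 0.0975 over these 4 settings).

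Fscn2, the actin bundler, was the only 1 of the 10 with readings not above background. It read 7.57, 7.72 and 7.81 in DKO and 7.66, 7.59 and 7.75 in Rb KO, none of them above the background percentile of its array, and 8.78, 8.95 and 8.47 in WT, all above it. The fitted log2 fold changes of -1.04 (SE 0.116, adjusted p = 8.8e-05) in DKO and -1.07 (SE 0.116, adjusted p = 9.8e-05) in Rb KO are therefore not measured sizes. Set against the background percentile, an estimate from group means and no confidence limit, Fscn2 was at least 1.28-fold lower in DKO and at least 1.27-fold lower in Rb KO.

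The axoneme gene Rp1l1 had the largest fitted fall of the 10 in DKO. It read 8.49, 9.12 and 8.92 in DKO, 9.42, 8.87 and 9.75 in Rb KO, and 10.57, 10.68 and 10.47 in WT. This is 30.1% of the WT level in DKO (log2 fold change -1.73, SE 0.206, adjusted p = 1.3e-04) and 42.7% in Rb KO (-1.23, SE 0.206, adjusted p = 0.00155). Only 0.185% of all genes had as large a fall in DKO. Tulp1, of the tubby-like family, read 9.26, 9.74 and 9.58 in DKO, 10.002, 9.52 and 10.30 in Rb KO, and 10.70, 10.75 and 10.69 in WT. Its log2 fold change was -1.19 (SE 0.175, adjusted p = 5.1e-04) in DKO and -0.77 (SE 0.175, adjusted p = 0.00847) in Rb KO. Both genes had 1 DKO array below the other 2, and Rb KO arrays that reached into the range of DKO.

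Both matrix proteoglycans fell, by different fitted sizes in Rb KO. Impg1 read 9.12, 10.23 and 9.92 in DKO, 9.75, 9.74 and 10.58 in Rb KO, and 11.36, 11.46 and 11.52 in WT. Its mutant groups were the most spread of the 10 genes, with an SD of 0.57 in DKO and 0.48 in Rb KO. It was at 31.1% of the WT level in DKO (log2 fold change -1.69, SE 0.272, adjusted p = 9.2e-04) and at 37.3% in Rb KO (-1.42, SE 0.272, adjusted p = 0.00339), the largest fitted fall of the 10 in Rb KO. Impg2 read 11.11, 11.35 and 11.17 in DKO, 11.70, 11.71 and 12.09 in Rb KO, and 12.21, 12.28 and 12.55 in WT. As for Prom1, no group overlapped another. It was at 45.4% of the WT level in DKO (log2 fold change -1.14, SE 0.127, adjusted p = 8.4e-05) and at 70.2% in Rb KO (-0.51, SE 0.127, adjusted p = 0.0136), the smallest fitted fall of the 10 in Rb KO. That Rb KO call ended without Rb KO replicate 1 or 2 (adjusted p = 0.0605 and 0.0607).

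Reep6, the membrane shaper of rods, had the smallest fitted fall in DKO. It read 11.96, 12.39 and 12.27 in DKO, 12.20, 11.99 and 12.48 in Rb KO, and 12.74, 12.90 and 12.84 in WT. It stood at 65.1% of the WT level in DKO (log2 fold change -0.62, SE 0.135, adjusted p = 0.00573) and at 65.7% in Rb KO (-0.61, SE 0.135, adjusted p = 0.00792). With that same control measure in the fit the DKO call missed the threshold (adjusted p = 0.0544). The 95% interval of its log2 fold change in DKO ran between -0.92 and -0.32, and that of Rp1l1 between -2.19 and -1.28. Differences in fall between genes were not tested.

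The added loss of p107 was read from DKO against Rb KO. Of the 10 genes, 2 were called lower in DKO and 0 higher, beside 1.21% and 1.34% of all genes and, for lower, 2.5% of the genes above background in every WT array. These were Prom1, at 67.1% of the Rb KO level (log2 fold change -0.58, 95% interval -0.83 to -0.33, adjusted p = 0.0269), and Impg2, at 64.7% (-0.63, -0.91 to -0.35, adjusted p = 0.0294). Both were lower in each of the 3 DKO arrays than in any Rb KO array, which held for 10.9% of all genes. Each call ended when any 1 of 4 arrays was left out, the first or the third replicate of either mutant, and that of Prom1 also without Rb KO replicate 2 (adjusted p between 0.053 and 0.121).

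A further 4 genes had an unadjusted p under 0.05 and did not pass the adjustment. The model pools the spread of a gene over DKO, Rb KO and WT, where the median SD of the 10 genes was 0.27, 0.34 and 0.08. The intervals and p between the mutants thus rest in part on the WT spread. It was narrower than that of both mutants except for Fscn2 and Impg2. For the 4 genes, the log2 fold changes in DKO against Rb KO were -0.50 for Rp1l1 (95% interval -0.96 to -0.05) and -0.42 for Tulp1 (-0.80 to -0.03). Those of Cdhr1 and Rom1 were -0.41 (-0.79 to -0.04) and -0.40 (-0.80 to -0.00372). The adjusted p was 0.30 for Rp1l1, 0.317 for Tulp1, 0.307 for Cdhr1 and 0.361 for Rom1. An unadjusted p under 0.05 with a lower value in DKO, which 6 of the 10 genes had, was found in 5.99% of all genes. For the remaining 4 the interval included 0. Its bounds were -0.59 and 0.36 for Prph2, -0.87 and 0.33 for Impg1, -0.31 and 0.29 for Reep6, and -0.23 and 0.29 for Fscn2, whose readings were at background in both mutants. These intervals leave room for differences of the size seen in Prom1 for Prph2 and Impg1, and not for Reep6.

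**Figure D2:**
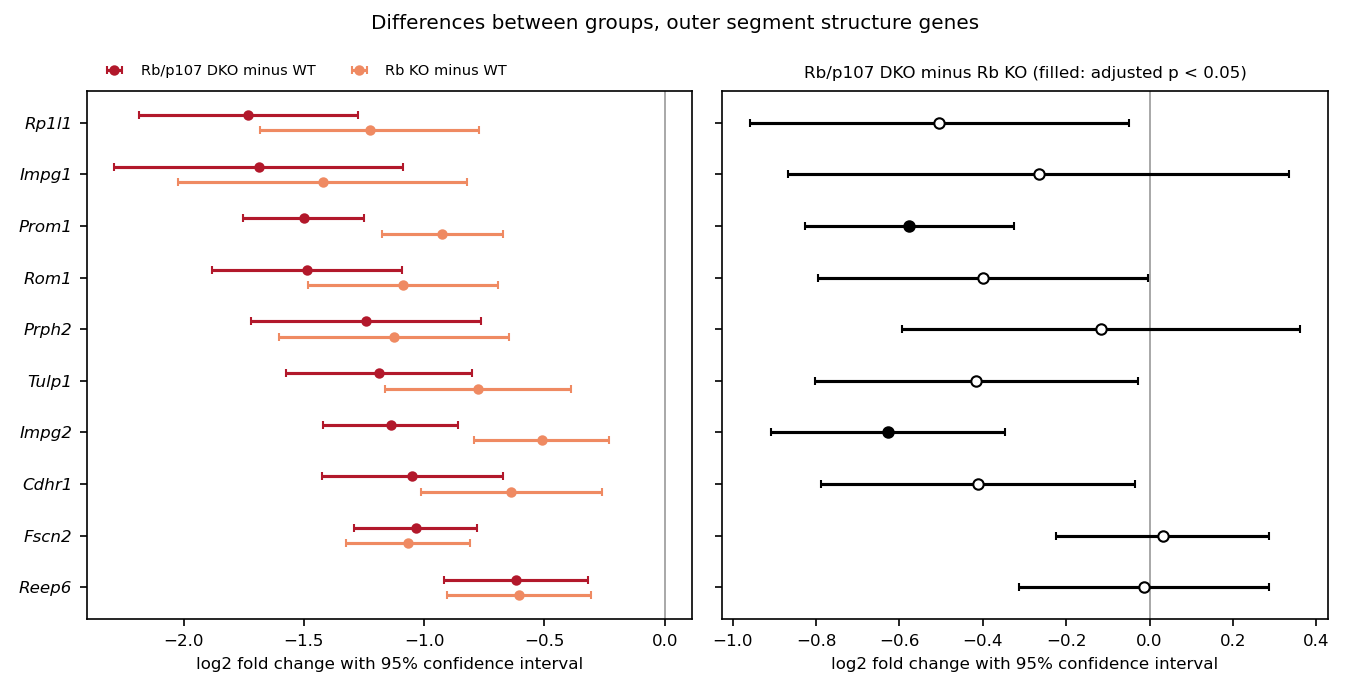
Log2 fold change of each gene with its 95% confidence interval from the linear model, 3 arrays per group. Left, Rb/p107 DKO (dark) and Rb KO (light) against WT, all below 0; right, Rb/p107 DKO against Rb KO, where the filled points, Prom1 and Impg2, passed at an adjusted p under 0.05.

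Within each mutant group the 10 genes largely shared an order of arrays. DKO replicate 1 was the lowest DKO array for 10 of 10 genes, as it was for 31.4% of all genes. DKO replicate 2, the array that stood apart in Xist and lens markers, was the highest DKO array for 9 of 10 genes and for 4 of 4 rod markers, as it was for 30.6% of all genes. Rb KO replicate 3 was the highest Rb KO array for 10 of 10, as it was for 27.5% of all genes. The mean log2 intensity of the 10 genes was 9.98, 10.51 and 10.37 in DKO, 10.55, 10.36 and 10.94 in Rb KO, and 11.52, 11.61 and 11.55 in WT. The median SD of these genes within a group was 0.27 in DKO, 0.34 in Rb KO and 0.08 in WT. Each gene was least spread in WT except Fscn2 and Impg2. The SD of Fscn2 was 0.24 in WT, 0.12 in DKO and 0.08 in Rb KO. That of Impg2 was 0.18 in WT, 0.13 in DKO and 0.22 in Rb KO. The SD within groups was not summarised over all genes. Correlations between arrays over all genes, a different measure, were 0.9919 to 0.9963 within WT, 0.9966 to 0.9977 within DKO and 0.9959 to 0.9968 within Rb KO.

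Against WT, markers of photoreceptors moved with these genes. In DKO against Rb KO the median log2 fold change was -0.24 for rod and 0.03 for cone markers, beside -0.41 for the 10 genes. There Nrl and Gngt2 were called lower and no rod or cone marker higher. Gnat1 stood at 1.18 (adjusted p = 0.154) and Opn1mw, above background in no Rb KO array, at 1.19 (adjusted p = 0.119). All 4 measured rod markers (of 7 listed) fell in both mutants, and they were lowest in DKO replicate 1 and highest in Rb KO replicate 3 within their groups in 4 of 4 cases. The mean of the bipolar and that of the ganglion cell markers were also lowest in DKO replicate 1 and highest in Rb KO replicate 3 within those groups, so this order was not particular to photoreceptor markers. The summed linear intensity of the rod markers was 5555 to 13163 in DKO, 5011 to 9607 in Rb KO and 20839.7 to 22186 in WT. Of 6 measured cone markers 6 fell in DKO and 5 in Rb KO, with sums of 1412 to 2563, 1584 to 2378 and 6454 to 6969.6 in DKO, Rb KO and WT. The sixth in DKO was Gngt2, which was above background on no array. Markers of other cells moved as well: all 5 measured markers of cycling cells rose in both mutants (sums of 9271 to 10713 in DKO, 7009 to 9389 in Rb KO and 487 to 536 in WT), of which Birc5 was above background on no array. Of 7 measured pigment epithelium markers 6 fell in each mutant (725 to 938 in DKO, 909 to 1065 in Rb KO and 2273 to 3088 in WT), with Best1, Tyr and Mlana above background on no array. Lens markers summed to 1176 to 6069 in DKO, highest in replicate 2, to 692 to 1027 in Rb KO and to 613 to 793 in WT, with Crybb2 and Lim2 above background on no array. Of 5 measured bipolar cell markers 4 fell in DKO and 5 in Rb KO, of 6 ganglion cell markers 5 in DKO and 6 in Rb KO, of 4 Müller glia markers 3 in each, and of 5 endothelial markers 4 in DKO and 3 in Rb KO. Beside all these marker counts, 17.1% of all genes were called lower and 12.2% higher in DKO, and 14.3% and 10.2% in Rb KO. In 3 other lists members were called higher and none lower. Of 2 measured amacrine cell markers, Tfap2a had a log2 fold change of 0.79 in DKO and 0.36 in Rb KO. Of 3 horizontal cell markers, Onecut2 was called higher in both mutants with 1 of 9 readings above background. Of 5 microglia markers, C1qb was called higher in both, with all DKO and Rb KO readings and 1 of 3 WT readings above background, and Cx3cr1 in Rb KO with none above it. The part of these cells in the values of the 10 genes was not tested. Without DKO replicate 2 all 10 genes remained called lower in DKO against WT.

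**Figure D3:**
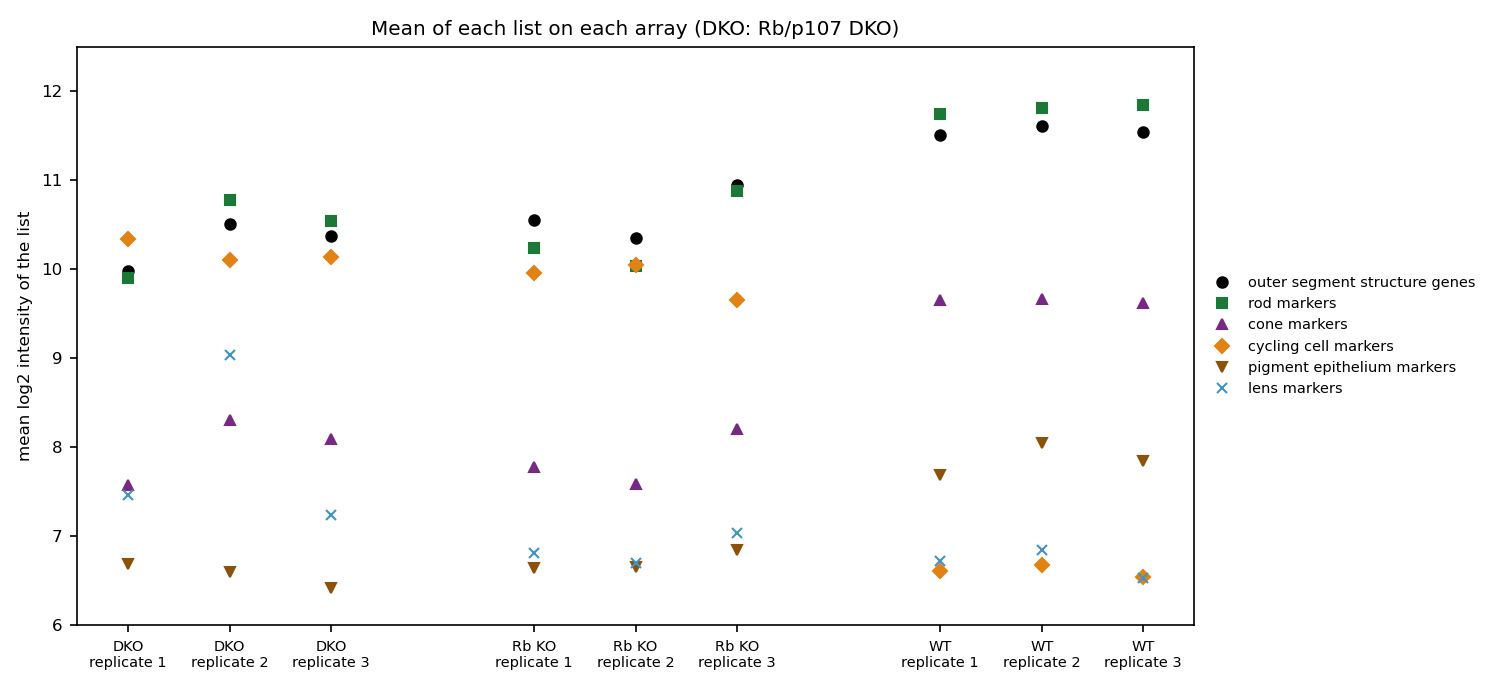
Mean log2 intensity of the 10 genes and of marker lists on each array, grouped as Rb/p107 DKO, Rb KO and WT. Within each mutant group the rod and cone means have the array order of the 10 genes, whereas between groups they do not (Rb KO replicate 1 lies above DKO replicates 2 and 3 for the 10 genes and below both for rod and cone markers). Cycling cell markers are higher in both mutants than in WT, and lens markers are highest in DKO replicate 2.

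Other genes of the same structure were read from related lists. Of 14 measured genes of discs and the outer segment membrane (of 16 listed), 13 fell and 0 rose in each mutant, with a median log2 fold change of -1.60 in DKO and -1.27 in Rb KO. The share of all genes called lower was 17.1% in DKO and 14.3% in Rb KO. Atp8a2, a lipid flippase of disc membranes, had a log2 fold change of -1.47 in DKO and -1.08 in Rb KO (SE 0.145 each). Slc24a1, the rod ion exchanger, was called lower in both mutants, with readings of 8.21, 9.79 and 9.31 in DKO (2 of 3 above background), 8.04, 7.67 and 8.89 in Rb KO (1 of 3) and 11.24, 11.59 and 11.41 in WT (3 of 3). Its fitted log2 fold changes, -2.31 in DKO and -3.21 in Rb KO, thus rest in part on readings not above background. Guca1b, an activator of guanylate cyclase, was not above background in any mutant array and was at least 3.16-fold lower in DKO and at least 3.15-fold lower in Rb KO. None of the 14 passed in DKO against Rb KO.

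Cilium and transport genes moved less uniformly. Of 20 measured genes of the connecting cilium and axoneme (of 25), 14 fell and 1 rose in DKO and 8 fell and 1 rose in Rb KO, with medians of -0.43 and -0.25. Over all genes 17.1% were called lower and 12.2% higher in DKO, and 14.3% and 10.2% in Rb KO. In DKO against Rb KO 1.21% of all genes were called lower. Of the 20, 3 were above background on no array, among them Spata7, counted with the falls in both mutants, and Tmem216, counted with those in DKO. Ttc8, a subunit of the BBSome, changed by -1.06 in DKO and -0.58 in Rb KO (SE 0.112 each), while Poc1b, a centriole protein, rose by 0.44 in DKO and 0.60 in Rb KO (SE 0.0932 each). The small GTPase Arl3 changed by -0.65 in DKO and -0.70 in Rb KO (SE 0.112 each). In DKO against Rb KO 2 cilium genes passed, Mak (-0.78, SE 0.165, adjusted p = 0.0348), a kinase of the axoneme, and Cep290 (-0.71, SE 0.138, adjusted p = 0.0248), a connecting cilium protein named after its value was seen. Both calls ended without any 1 of the same 4 arrays as those of Prom1 and Impg2 (adjusted p between 0.0656 and 0.105 for Cep290). That of Mak also ended without WT replicate 3 and in 2 other settings (adjusted p = 0.0514 to 0.124).

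Of 13 measured transport genes (of 15), 4 fell and 3 rose in DKO and 2 fell and 2 rose in Rb KO, with medians of -0.19 and -0.13. Of all genes 17.1% were called lower in DKO and 14.3% in Rb KO. Of genes above background in every WT array it was 29.1% and 25.7%, so the transport falls do not stand out from these shares. Unc119, which carries lipid-modified transducin, stood at -1.20 in DKO and -0.96 in Rb KO (SE 0.153 each). Rab28, a small GTPase, stood at -0.96 in DKO and -0.80 in Rb KO (SE 0.0872 each). Rab8a, which acts in vesicle traffic to the cilium, rose by 0.24 in DKO (adjusted p = 0.0257) and 0.27 in Rb KO (adjusted p = 0.0189), calls lost in 4 and 5 of the 16 settings (adjusted p up to 0.104). Arf4, which takes part in rhodopsin sorting, rose by 0.31 in DKO (adjusted p = 0.0219, lost in 4 settings) and stood at 0.20 in Rb KO (adjusted p = 0.124). Among 5 measured genes of the matrix and of disc uptake (of 9), 3 fell and 1 rose in each mutant. The matrix retinoid carrier Rbp3 stood at -1.23 in DKO and -0.73 in Rb KO (SE 0.152 each). Of the disc uptake ligands, Gas6 stood at -0.99 in DKO and -1.17 in Rb KO (SE 0.115 each) and Mfge8 at -0.50 and -0.67 (SE 0.103 each). Pros1 was called higher in both mutants on readings of which 1 of 9 was above background.

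Transcription factors of photoreceptors were mixed. Of 10 measured (of 14), 5 fell and 1 rose in DKO and 4 fell and 3 rose in Rb KO. The shares of all genes were 17.1% lower and 12.2% higher in DKO, and 14.3% and 10.2% in Rb KO. In DKO against Rb KO 4 of these factors were called lower, beside 1.21% of all genes. Crx, the homeodomain factor of photoreceptors, read 10.99, 11.40 and 11.33 in DKO, 11.74, 11.70 and 12.07 in Rb KO, and 12.25, 12.33 and 12.31 in WT, 3 ranges that did not overlap. Nrl, the rod factor, read 8.19, 8.57 and 8.48 in DKO, 9.04, 8.80 and 9.30 in Rb KO, and 9.92, 10.01 and 9.90 in WT, in the same order, with 2 of the 3 DKO readings above background. Their log2 fold changes in DKO against Rb KO were -0.60 (SE 0.123, adjusted p = 0.0297) for Crx and -0.63 (SE 0.130, adjusted p = 0.0304) for Nrl. Both calls were lost without any 1 of those 4 mutant arrays or without WT replicate 3, and with only the 2 groups compared in the fit (adjusted p between 0.0505 and 0.12). Crx, which was named after its values were seen, fell in Rb KO against WT by 0.46 (SE 0.123, adjusted p = 0.0196), a call that ended in 4 settings, among them those without Rb KO replicate 1 or 2 or WT replicate 3 (adjusted p = 0.0507 to 0.0953).

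Esrrb, a nuclear receptor of rods, was not above background in any mutant array and was at least 1.57-fold lower in DKO and at least 1.56-fold lower in Rb KO. Rorb, which acts upstream of Nrl, rose by 0.47 in DKO (adjusted p = 0.00332) and 0.38 in Rb KO (adjusted p = 0.014, lost in 3 settings).

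Prdm1 and Otx2 had another order. Prdm1, which favours photoreceptor over bipolar fate, read 9.61, 9.41 and 9.27 in DKO, 10.36, 10.34 and 10.24 in Rb KO, and 9.18 to 9.24 in WT. It was higher in Rb KO than in WT (1.10, SE 0.0900, adjusted p = 1.3e-05) and lower in DKO than in Rb KO (-0.88, SE 0.0900, adjusted p = 4.7e-04). Otx2, which acts upstream of Crx, read 10.82, 10.70 and 10.59 in DKO, 11.19, 11.28 and 11.35 in Rb KO, and 10.81, 10.92 and 10.82 in WT, giving a log2 fold change of -0.57 for DKO over Rb KO (adjusted p = 0.00469) and 0.42 for Rb KO over WT (adjusted p = 0.0035), each with an SE of 0.0817.

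**Figure D4:**
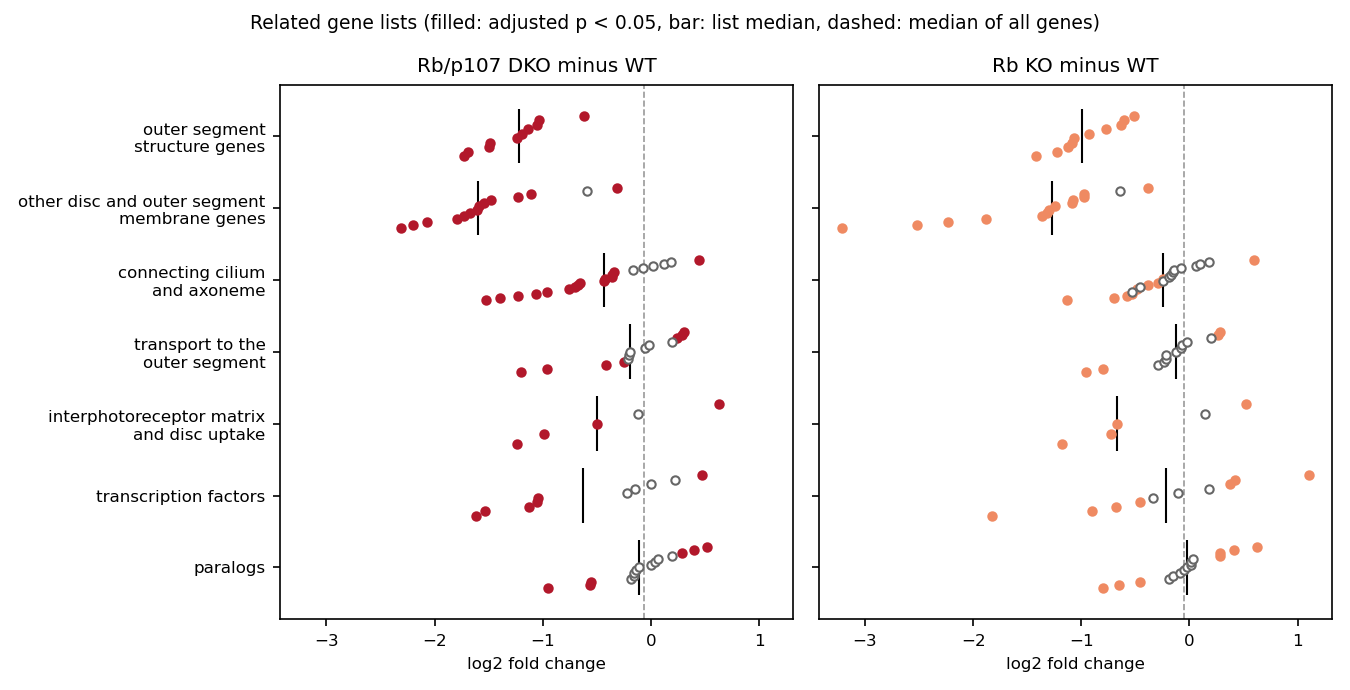
Log2 fold change of each gene against WT by list, in Rb/p107 DKO (left) and Rb KO (right). Filled points passed at an adjusted p under 0.05, bars are list medians and the dashed line is the median of all genes (-0.06 and -0.05): the 10 outer segment structure genes and the other disc and membrane genes lie mostly left of -0.5, whereas paralogs, transport and cilium genes lie on both sides.

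Paralogs of the 10 genes did not share one direction. Of 15 measured (of 18), 3 fell and 3 rose in DKO, 3 fell and 4 rose in Rb KO, and 7 were above background on no array. Over all genes 17.1% were called lower and 12.2% higher in DKO, and 14.3% and 10.2% in Rb KO. The falls among the paralogs thus do not stand out from these shares. Fscn1, the widely expressed fascin, rose by 0.40 in DKO (SE 0.101, adjusted p = 0.0131) and 0.41 in Rb KO (SE 0.101, adjusted p = 0.0135), opposite to Fscn2. The calls ended without DKO replicate 3 (adjusted p = 0.0515) and without Rb KO replicate 1 (adjusted p = 0.0541). Tub, a tubby-family relative of Tulp1, stood at -0.95 in DKO and -0.80 in Rb KO (SE 0.125 each). Tulp3, a regulator of ciliary trafficking, was called higher in both on readings of which 1 of 9 was above background. Among the relatives of Reep6, Reep5 stood at -0.56 in DKO and -0.65 in Rb KO (SE 0.0947 each) and Reep4 rose by 0.52 in DKO and 0.62 in Rb KO (SE 0.0849 each). Reep3 stood at 0.19 in DKO (adjusted p = 0.118) and 0.28 in Rb KO (adjusted p = 0.035, a call lost in 8 of 16 settings), Reep1 at -0.19 in both (adjusted p = 0.15 and 0.164) and Reep2 at -0.16 and -0.15 (adjusted p = 0.313 and 0.355). Tspan10, a tetraspanin, was called lower in both mutants on readings of which none was above background.

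The genes whose profile over the 9 arrays was closest to that of Prph2 were sought among the 6852 other genes above background in all WT arrays. The measure was the root mean square difference of the log2 intensities, each centred on its own mean. The 5 closest were Pde6b (0.0736), a rod phosphodiesterase subunit, Arr3 (0.082), cone arrestin, Grm6 (0.0988), the glutamate receptor of ON bipolar cells, Gucy2e (0.104), a photoreceptor guanylate cyclase, and Dhrs3 (0.104), a retinal reductase. Among the other 9 structure genes, Rom1 was closest (0.148, rank 22), followed by Tulp1 (0.172, rank 46). Impg2 (0.336, rank 383) and Reep6 (0.299, rank 266) were farthest.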

How the data were processed

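The table holds log2 intensities that the authors deposited, one per probe set, made with RMA (robust multi-array average), as the submitters' processing notes name it, with no version and no annotation build given in the sources used here. Of 52917 transcript clusters, 24646 had 1 gene symbol in the platform annotation, and symbols were updated through a GRCm38.p6 gene table. Where a gene had several probe sets, the brightest over the 9 arrays stood for it, with no filter on dim genes. The comparisons used limma 3.58.1 (R 4.3.3), with 1 mean per group and all 9 arrays in 1 model (6 residual and 4.69 prior degrees of freedom), with Benjamini-Hochberg adjustment over all 24259 genes and calls at an adjusted p under 0.05. The fit was tested on simulated data. Background was the 95th percentile of 5222 negative control probe sets per array. For a gene above background in no array of a mutant group, "at least" sets the WT mean against the dim group, in which each reading was raised to its array's percentile where it lay below it. From each related list, the called genes with the lowest p against WT were named, up to 2 in each direction and comparison, and all paralogs above background. The members and lists were chosen with earlier results of these data known. The alternatives were 16: each array left out in turn, a replicate block, renewed quantile normalization, the mean of probe sets, a filter on dim genes, another variance estimate, only the 2 groups compared, and the separation of positive from negative controls as a covariate. Promoter sequences are from RefSeq. Figures were drawn with matplotlib 3.10.9.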

Additional observations from a re-analysis of the deposited data

How the results depend on the processing

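The counts of 10 genes lower in DKO and 10 lower in Rb KO against WT were between 8 and 10 under each of the 16 alternatives, and the count of genes higher was 0 in all. Between the mutants, 2 genes were lower in DKO, and between 0 and 2 when 1 array was left out: 1 without Rb KO replicate 2, and 0 without the first or the third replicate of either mutant. The cause was not tested. Over all genes the count for DKO against Rb KO was 617, and 253 to 302 without any 1 of those 4 arrays. For DKO against WT it was 7113, and 4330 with only genes above background in at least 3 arrays tested. With the replicate number as a block the counts among the 10 genes were 10, 10 and 2, and over all genes 6666 for DKO against WT, 5453 for Rb KO against WT and 501 for DKO against Rb KO. Arrays with the same number did not deviate together (correlations of -0.16 to 0.15 over 9 pairs, against -0.33 to 0.25 between different numbers), and not every array correlated best with its own number. With the mean of its probe sets Rb1 turned to 0.74 in DKO (adjusted p = 0.00468) and 0.68 in Rb KO (adjusted p = 0.00963) against WT, and the cause was not tested. No gene of the 10 that had passed changed sign under any alternative. Fscn2 in the mutants is limited by signal over background.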
